A study of Homo sapiens with 13 samples.

Results

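Over 42 h of BMP4 with the Wnt secretion inhibitor IWP2, CDH1 transcripts rose 3.69-fold and CDH3 transcripts 2.43-fold relative to 0 h. CDH2 fell 8.17-fold and VIM fell 4.86-fold. EPCAM fell first and rose later, and the transcripts of the repressors SNAI1 and TWIST1, like those of CDH1, were higher at 42 h than at 0 h, TWIST1 after a peak at 28 h. After 5 h of BMP4 with IWP2, VIM, CDH3 and EPCAM were higher at each dose of the BMP receptor inhibitor LDN. CDH2 also passed the dose test, though not in 5 of 12 alternatives, and CDH1 and SNAI1 did not pass it.

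The genes described here are 10 transcripts chosen by name, of 61546 features per table: the cadherins CDH1, CDH2 and CDH3, the adhesion protein EPCAM, the filament protein VIM, and the transcription factors SNAI1, SNAI2, ZEB1, ZEB2 and TWIST1. All 10 were found in both count tables. In the time series 8 of them passed a filter of a mean level of at least 1 CPM (counts relative to library size) and were tested. In the dose response 6 passed it. TWIST1 and ZEB2, with time-series means of 1.21 and 1.46 CPM, passed through their high levels at 20 and 28 h.

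Cadherins are calcium-dependent adhesion proteins that join neighboring cells, and their cytoplasmic tails bind catenins that link them to actin. E-cadherin (CDH1) and P-cadherin (CDH3) are typical of epithelia, and N-cadherin (CDH2) is typical of neural and mesenchymal cells. In the epithelial-mesenchymal transition (EMT), known from gastrulation and neural crest formation, factors of the SNAIL, ZEB and TWIST families repress CDH1, and VIM and CDH2 often increase. Human pluripotent stem cells are epithelial and carry CDH1 and EPCAM at their surface, and so does the amnion.

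The cells were RUES2 human embryonic stem cells, an established line, with GFP fused to SMAD4. In the time series, ribosome-depleted RNA was sequenced at 0 h (2 libraries) and at 4, 12, 20, 28 and 42 h (1 library each) of 100 ng/mL BMP4 with 5 µM IWP2, an inhibitor of Wnt secretion, in mTeSR1 medium with ROCK inhibitor at low density. This treatment also stands in the labels at 0 h, which were read as cells collected when it began. In the dose response, polyA RNA was sequenced after 5 h of the same BMP4, IWP2 and ROCK inhibitor with 0, 10, 30, 100 or 300 nM LDN-193189 (LDN), and from cells labeled mTeSR with no agent (untreated), with 1 library each. The tables came from different extraction kits and library preparations, so levels were compared within a table. No label ties the libraries to separate cultures, so the p-values measure the spread between these libraries. For the trends on hours and on dose, that spread is the scatter about a straight line, which includes any curvature of the course.

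Library totals were 37957385 to 71333471 counts in the time series and 15600931 to 33989998 in the dose response, where the untreated library was the smallest. Mitochondrial transcripts took 7.60% of counts in 0 h replicate 1 and 7.89% in the untreated library, against 2.01% to 4.49% in the others. The summed level of the pluripotency markers POU5F1, SOX2, NANOG and PRDM14 was 1565 and 2215 CPM at 0 h and 1336 CPM at 42 h. Of these 3 of 4 were lower on hours, and POU5F1, which made up most of the sum, was not called, with 986 and 1675 CPM at 0 h and 1321 CPM at 42 h. The summed level of the amnion-like markers GATA3, TFAP2A, ISL1 and HAND1 was 0.622 and 0.833 CPM at 0 h and 4320 CPM at 42 h. The 6 primitive streak or mesoderm markers summed to 2.13 to 5.62 CPM over all libraries, and TBXT did not exceed 0.287 CPM. EOMES, the 1 of these 6 that was tested, rose from 0.207 and 0.300 CPM at 0 h to 3.53 CPM at 20 h (log2 change 3.74, SE 0.49). It was at 0.339 CPM at 42 h. EOMES passed the filter through its levels from 4 to 28 h, so its testing is not independent of this rise. Of 8 fibroblast or stromal markers, DCN had at most 1 count in a library and LUM at most 54. COL1A1 stood at 95.8 to 193 CPM in the time series, and PDGFRB rose from 6.14 and 7.12 CPM at 0 h to 70.7 CPM at 20 h and 48.4 CPM at 42 h.

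CDH1, at chr16:68737292-68835537 on the plus strand of GRCh38 (GENCODE 44), encodes the main cadherin of epithelia. Its normalized level was 303 and 255 CPM in the 0 h libraries, 265 CPM at 4 h, 329 CPM at 12 h, 452 CPM at 20 h, 588 CPM at 28 h and 1030 CPM at 42 h. Every library from 12 h on lay above both 0 h libraries, and each of these was higher than the one before. Fitted on hours over the 7 libraries, the change over 42 h was 1.89 on the log2 scale (SE 0.18, adjusted p = 0.00020, edgeR quasi-likelihood test with Benjamini-Hochberg adjustment over 15976 genes). In this test 6 of the 8 members passed, 4 higher and 2 lower, and 36.7% of all genes did (19.2% higher, 17.5% lower). In bulk RNA, a change in the share of cells that express a gene and a change in RNA per cell cannot be told apart.

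Against 0 h, CDH1 was first higher at 28 h, by 1.08 on the log2 scale (SE 0.33, adjusted p = 0.0083), and by 1.88 at 42 h (SE 0.33, adjusted p = 1.1e-07). At 4 h the difference was -0.07, not called, and changed sign to 0.01 when libraries were scaled to their totals. These contrasts with 0 h rest on 1 residual degree of freedom. The spread of the 0 h pair was pooled among genes, with infinite prior degrees of freedom, and assumed for the single later libraries. A gene's own spread at 0 h thus carried no weight of its own, and the p-values measure the pooled spread.

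CDH3, at chr16:68636189-68727468, lies on the same strand and ends 9823 bases before the start of CDH1. It stood at 178 and 181 CPM at 0 h, 154 CPM at 4 h, 138 CPM at 12 h, 190 CPM at 20 h, 225 CPM at 28 h and 437 CPM at 42 h. The levels at 4 h and 12 h were below the 0 h pair, those from 20 h on were above it, and the largest step was the last. At 42 h CDH3 was higher by 1.28 on the log2 scale (SE 0.33, adjusted p = 0.00040), and at no earlier time did it pass the test. Its slope on hours, 1.21 over 42 h (SE 0.28, adjusted p = 0.012), depended on the last library: without 42 h it was 0.47 (adjusted p = 0.33). The antisense gene CDH3-AS1, which overlaps CDH3 exons, had up to 538 counts in a library against 6866 to 23208 for CDH3, and whether counting used strand is not stated in the sources used here.

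CDH2, at chr18:27932879-28177946 on the minus strand, moved in the opposite direction from CDH1. Its level was 29.3 and 30.4 CPM at 0 h, 26.1 CPM at 4 h, 14.9 CPM at 12 h, 8.04 CPM at 20 h, 7.16 CPM at 28 h and 3.66 CPM at 42 h. Each later library was below the one before, and all were below the 0 h pair. The fitted change over 42 h was -3.12 on the log2 scale (SE 0.24, adjusted p = 8.7e-05). CDH2 was also the earliest of the members to be lower and stay lower: it passed the test at 12 h, with a log2 change of -1.003 (SE 0.32, adjusted p = 0.023), when 9.68% of all genes (7.04% higher, 2.64% lower) and 1 of 8 members did. This early call did not hold with DESeq2 (adjusted p = 0.071) or without the filter on low counts (adjusted p = 0.055). By 42 h the change was -3.03 (SE 0.37, adjusted p = 4.4e-15).

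VIM, at chr10:17228241-17237593 on the plus strand, encodes vimentin, the intermediate filament protein of mesenchymal cells, which pluripotent stem cells in culture also express. It stood at 94.97 and 73.2 CPM in the 0 h libraries, 64.4 CPM at 4 h, 44.6 CPM at 12 h, 34.2 CPM at 20 h, 29.2 CPM at 28 h and 17.3 CPM at 42 h. All later libraries were below both 0 h libraries, in the order of time, as for CDH2. The slope gave -2.24 over 42 h on the log2 scale (SE 0.20, adjusted p = 0.00016). VIM passed the test against 0 h from 20 h on, where it was lower by -1.30 (SE 0.35, adjusted p = 0.0018). The higher of the 0 h values belonged to the library with more mitochondrial counts: the observed log2 difference of 42 h from 0 h was -2.05 without that library and -2.42 without the other. Over the same hours the summed level of 8 fibroblast or stromal markers went from 493 and 521 CPM to 269.9 CPM. Most of that fall was THY1, also found on pluripotent stem cells, with 244 and 287 CPM at 0 h and 29.7 CPM at 42 h. Of the 5 markers tested on hours, 1 was higher (PDGFRB) and 2, THY1 among them, were lower. The part of these markers in the VIM result was not tested.

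Promoter sequence for the members that fell together, VIM and CDH2, is shown because both were also called higher with LDN, the CDH2 call being lost in 5 of 12 alternatives. The set of RefSeq promoters on GRCh38.p14 used here held 4 of the 10 members (VIM, CDH2, ZEB1 and ZEB2). CDH1, CDH3, EPCAM, SNAI1, SNAI2 and TWIST1 were absent from that set. Each line runs 5′ to 3′ from 100 bases before the start to 30 bases from it, in lower case, with the first transcribed base and any motif found in capitals. The VIM stretch is chr10:17228141-17228270 on the plus strand, and the CDH2 stretch is chr18:28177101-28177230 on the minus strand. Of 2 listed CDH2 starts, the nearer to the annotated 5′ end of the gene was used. That start, base 28177130, lies inside the GENCODE gene, which begins at 28177946 on this strand.
VIM: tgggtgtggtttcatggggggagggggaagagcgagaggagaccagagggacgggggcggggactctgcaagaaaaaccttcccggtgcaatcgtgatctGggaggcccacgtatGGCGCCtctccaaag
CDH2: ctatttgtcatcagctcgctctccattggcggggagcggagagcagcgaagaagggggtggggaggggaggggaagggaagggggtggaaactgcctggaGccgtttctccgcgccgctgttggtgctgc
Both strands were searched for GGCGCC, a GC-rich element that SMAD proteins of the BMP pathway can bind, for CAGGTG, the E-box of SNAIL and ZEB factors, and for TATAAA. The VIM stretch held GGCGCC beginning at base 16 of the transcript, and no other of these motifs. The CDH2 stretch held none of them. Among 35116 promoters of the same length, 10.6% held GGCGCC, 8.83% held CAGGTG and 5.59% held TATAAA, so the VIM match is a letter match that many promoters share.

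EPCAM, at chr2:47345158-47387601, encodes an adhesion protein of epithelial and pluripotent stem cells that is not a cadherin. Its level was 140.2 and 133 CPM at 0 h, 89.7 CPM at 4 h, 75.0 CPM at 12 h, 70.7 CPM at 20 h, 136 CPM at 28 h and 345 CPM at 42 h. The libraries from 4 to 20 h lay below the 0 h pair, the 28 h library lay between the pair, and the 42 h library lay far above it. EPCAM was lower at 20 h by -0.95 on the log2 scale (SE 0.35, adjusted p = 0.037, and 0.071 without the filter on low counts) and higher at 42 h by 1.33 (SE 0.32, adjusted p = 0.00019). A line on hours does not describe this course: the slope gave 1.21 over 42 h (adjusted p = 0.096), and -0.28 (adjusted p = 0.75) without the 42 h library.

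**Figure D1:**
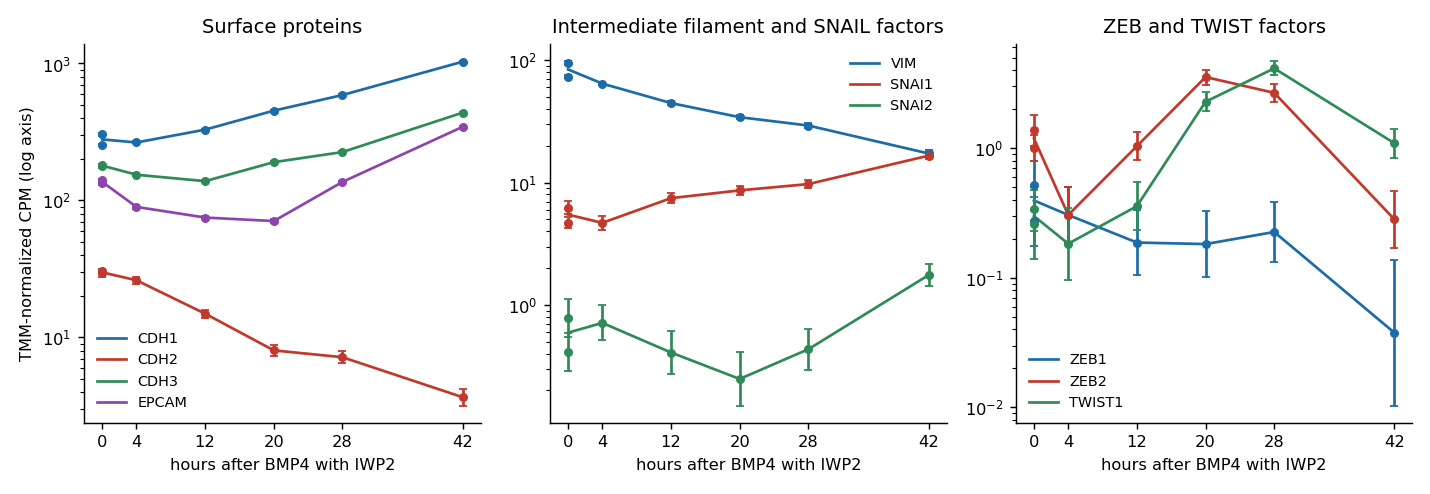
Normalized level (TMM-scaled CPM, log axis) of the 10 genes against hours of BMP4 with IWP2 in the 7 time-series libraries. Points are libraries with Wilson 95% intervals, which cover counting error only, and lines join the mean at 0 h (n = 2) to the single later libraries; CDH1 reached 1030 CPM at 42 h while CDH2 reached 3.66 CPM, EPCAM had its lowest value at 20 h, and ZEB2 and TWIST1 peaked at 20 h and 28 h.

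SNAI1, at chr20:49982980-49988886, encodes a zinc finger repressor of CDH1. Its level was 6.25 and 4.70 CPM at 0 h, 4.69 CPM at 4 h, 7.46 CPM at 12 h, 8.63 CPM at 20 h, 9.72 CPM at 28 h and 16.6 CPM at 42 h. From 12 h on each library was above the 0 h pair and above the one before. The change over 42 h was 1.62 on the log2 scale (SE 0.24, adjusted p = 0.0016). At 28 h the call (0.84, SE 0.32, adjusted p = 0.046) was lost with library totals, DESeq2 or no filter, and at 42 h the difference was 1.61 (SE 0.31, adjusted p = 2.5e-06). The transcripts of SNAI1 and CDH1 were both higher at 42 h than at 0 h, and an effect of SNAI1 on CDH1 in these cells was not tested.

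TWIST1, at chr7:19020991-19117636, encodes a basic helix-loop-helix factor of mesoderm and neural crest. It had 10 and 25 counts in the 0 h pair, 9 counts at 4 h, 21 counts at 12 h, 138 counts at 20 h, 238 counts at 28 h and 58 counts at 42 h. The normalized level was 0.259 and 0.341 CPM at 0 h and 4.14 CPM at its peak at 28 h. It was down to 1.09 CPM at 42 h. The levels at 20 and 28 h carried its mean over the filter, so the calls at those times are not independent of that filter. TWIST1 exceeded its starting level by 2.89 on the log2 scale at 20 h (SE 0.49, adjusted p = 1.0e-07) and by 3.74 at 28 h (SE 0.49, adjusted p = 3.8e-13). The excess was 1.82 at 42 h (SE 0.52, adjusted p = 0.0020), with an adjusted p of 0.093 in DESeq2. The slope on hours (4.17, adjusted p = 0.040) was not a stable call for this curved course. It was lost with limma on FPKM, and when either 0 h library or the 4, 12 or 28 h library was left out (adjusted p from 0.062 to 0.12 for the libraries left out). Without 42 h the slope was 6.26 (adjusted p = 0.0016).

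ZEB2, at chr2:144364364-144521057, encodes a zinc finger repressor that also binds SMAD proteins. It had 53 and 74 counts in the 0 h pair, 15 counts at 4 h, 61 counts at 12 h, 214 counts at 20 h, 154 counts at 28 h and 15 counts at 42 h. Thus it was low at 4 h, high at 20 and 28 h, and low again at 42 h. In normalized values this is 1.37 and 1.01 CPM at 0 h, 0.306 CPM at 4 h, 3.55 CPM at 20 h and 0.283 CPM at 42 h. The levels at 20 and 28 h carried its mean over the filter, so the calls at those times are not independent of that filter. At 4 h ZEB2 was the 1 member of 8 that passed the test, lower by -1.94 on the log2 scale (SE 0.58, adjusted p = 0.021), when 5.02% of all genes passed (4.39% higher, 0.632% lower). It was higher at 20 h by 1.59 (SE 0.44, adjusted p = 0.0030) and lower at 42 h by -2.05 (SE 0.59, adjusted p = 0.0020). At 28 h it was higher by 1.18 (SE 0.45, adjusted p = 0.044), a call lost with library totals (adjusted p = 0.057) and DESeq2 (0.40). With DESeq2 the calls at 4 h (adjusted p = 0.38) and 20 h (adjusted p = 0.19) were lost, and the call at 42 h held.

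SNAI2 and ZEB1 stayed below 1 CPM on average and were not tested. SNAI2, the relative of SNAI1 known from neural crest, had 30 and 30 counts at 0 h, 15 to 35 from 4 to 28 h and 93 at 42 h, where its level of 1.75 CPM was above both 0 h values of 0.778 and 0.409 CPM. ZEB1, the relative of ZEB2, had 20 and 20 counts at 0 h and 2 at 42 h, a level of 0.0377 CPM with a Wilson 95% interval of 0.0103 to 0.137 CPM. Fitted without the filter, SNAI2 was higher (adjusted p = 0.0018) and ZEB1 lower (adjusted p = 0.0096) at 42 h. The antisense gene ZEB1-AS1, which overlaps ZEB1 exons, had up to 150 counts, more than ZEB1 itself.

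Counted by time, the members called against 0 h were 2 higher and 3 lower at 20 h (18.5% of all genes called, 12.4% higher and 6.01% lower), 4 higher and 2 lower at 28 h (20.3%, 13.3% higher and 7.04% lower), and 5 higher and 3 lower at 42 h (37.7%, 19.9% higher and 17.8% lower). At 42 h all 8 tested members passed: CDH1, CDH3, EPCAM, SNAI1 and TWIST1 were higher, and CDH2, VIM and ZEB2 were lower. The median over these 8 was 1.31 on the log2 scale, against -0.01 over all genes tested. Of these 8, TWIST1 and ZEB2 were tested only through their high levels at 20 and 28 h, and they were the 2 called higher at 20 h. Scaling to library totals moved the median of all genes at 42 h to -0.22, and the 8 calls and their directions held under that scaling.

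To compare levels between genes, the authors' FPKM values were used, since they are per transcript length. At 0 h EPCAM was highest, with 151 ± 9.34 FPKM (SD, n = 2). CDH3 with 84.7 ± 0.799, CDH1 with 80.6 ± 9.30 and VIM with 74.9 ± 24.1 FPKM followed and did not differ beyond the spread of the pair. CDH2 came next with 8.84 ± 0.509 FPKM and SNAI1 with 3.92 ± 0.764 FPKM, and the other factors were below 1 FPKM in both libraries. At 42 h the order was EPCAM (344 FPKM), CDH1 (291 FPKM), CDH3 (192 FPKM), VIM (13.02 FPKM) and SNAI1 (9.96 FPKM), and CDH2 at 1.01 FPKM was behind SNAI2 at 1.29 FPKM. VIM, within the spread of CDH1 and CDH3 in the starting cells, was thus far below both at the end.

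The ratio of CDH1 to CDH2 within a library does not depend on library scaling. In FPKM its log2 value was 3.36 and 3.01 for the 0 h pair, and then 3.45, 4.60, 6.05, 6.43 and 8.17 for the libraries of 4, 12, 20, 28 and 42 h. CDH1 was therefore 10.3-fold and 8.05-fold above CDH2 at 0 h and 288-fold above it at 42 h, a log2 increase of 4.98, where the SD of the 0 h pair was 0.25. Of the summed FPKM of the 3 cadherins, CDH2 made up 4.69% and 5.50% at 0 h and 0.209% at 42 h. The share of CDH1 went from 48.2% and 44.2% to 60.1%, and the sum itself from 181 and 167 to 483 FPKM.

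**Figure D2:**
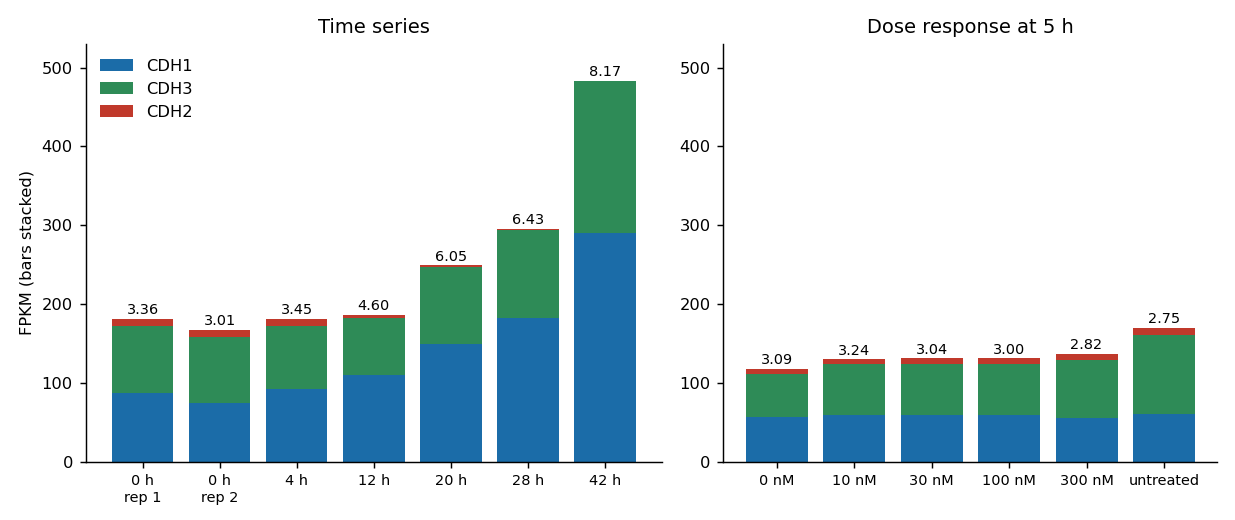
Stacked FPKM of CDH1, CDH3 and CDH2 in each library of the time series and of the dose response, with the log2 ratio of CDH1 to CDH2 printed above each bar. The ratio climbed from 3.36 and 3.01 at 0 h to 8.17 at 42 h, and it was between 2.75 and 3.24 in all 6 libraries of the dose response.

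The dose response asked whether the members followed the level of BMP signaling at 5 h. LDN blocks BMP receptors, so rising doses lower the signal while BMP4 and IWP2 are held constant. Over the 5 doses with BMP4, 4 of the 6 tested members rose with LDN and 0 fell, where 21.3% of all genes were called, 10.4% higher and 10.9% lower. CDH1 and SNAI1 were the members tested and not called. No dose had a replicate, and the scatter about the line served as the error.

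VIM showed the clearest gradation. Its level was 38.9 CPM without LDN, 44.8 CPM at 10 nM, 46.4 CPM at 30 nM, 50.7 CPM at 100 nM and 56.1 CPM at 300 nM. The untreated library held 59.4 CPM. Each dose gave more VIM than the dose below it. The fitted change from 0 to 300 nM was 0.49 on the log2 scale (SE 0.06, adjusted p = 8.2e-05), and the call held in all 12 alternatives run. The summed fibroblast or stromal markers went from 358 to 430.5 CPM over the same doses. Nearly all of that rise was THY1, with 196 CPM without LDN and 268 CPM at 300 nM. Of the 5 markers tested, 2 were higher, THY1 among them, and 1 was lower. The part of these markers in the VIM result was not tested.

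CDH3 was likewise ordered by dose, at 117 CPM without LDN, 135 CPM at 10 nM, 139 CPM at 30 nM, 146 CPM at 100 nM and 155 CPM at 300 nM, with 195 CPM in untreated cells. The change from 0 to 300 nM was 0.37 on the log2 scale (SE 0.05, adjusted p = 0.00027). Its call also held in the 12 alternatives, just under the threshold in limma on FPKM.

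EPCAM stood at 229 CPM without LDN, 230.4 CPM at 10 nM, 241 CPM at 30 nM, 248 CPM at 100 nM and 258 CPM at 300 nM, and at 323 CPM in untreated cells. The rise was monotonic and small, 0.18 on the log2 scale (SE 0.04, adjusted p = 0.0058), and without the 300 nM library it was not called (0.16, adjusted p = 0.079).

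CDH2 was at 24.8 CPM without LDN, 23.3 CPM at 10 nM, 26.8 CPM at 30 nM, 27.2 CPM at 100 nM, 29.3 CPM at 300 nM, and at 33.0 CPM in the untreated library. The 10 nM library broke the order. The rise of 0.28 on the log2 scale (SE 0.09, adjusted p = 0.032) was not called without the 10 nM (adjusted p = 0.082), 100 nM (0.066) or 300 nM library (0.24), nor with DESeq2 (0.075) or limma on FPKM (0.25).

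CDH1 was nearly flat: 245 CPM without LDN, 254 CPM at 10 nM, 256 CPM at 30 nM, 242 CPM at 100 nM and 229 CPM at 300 nM, with 257 CPM in untreated cells. Its slope was -0.11 on the log2 scale (SE 0.05, adjusted p = 0.17), and without the 0 nM library, from which it first rose, it was -0.21 (adjusted p = 0.011). SNAI1 was at 4.86, 4.72, 4.405, 3.51 and 4.05 CPM in order of dose and at 4.62 CPM in untreated cells, with 69 to 162 counts per library. The SNAI1 slope was -0.38 (SE 0.19, adjusted p = 0.18). SNAI2, ZEB1, ZEB2 and TWIST1 had 3 to 25 counts per library and were not tested. Without the filter on low counts none of these 4 was called in edgeR (unadjusted p from 0.21 to 0.57), and a dose response was not detectable at this depth.

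**Figure D3:**
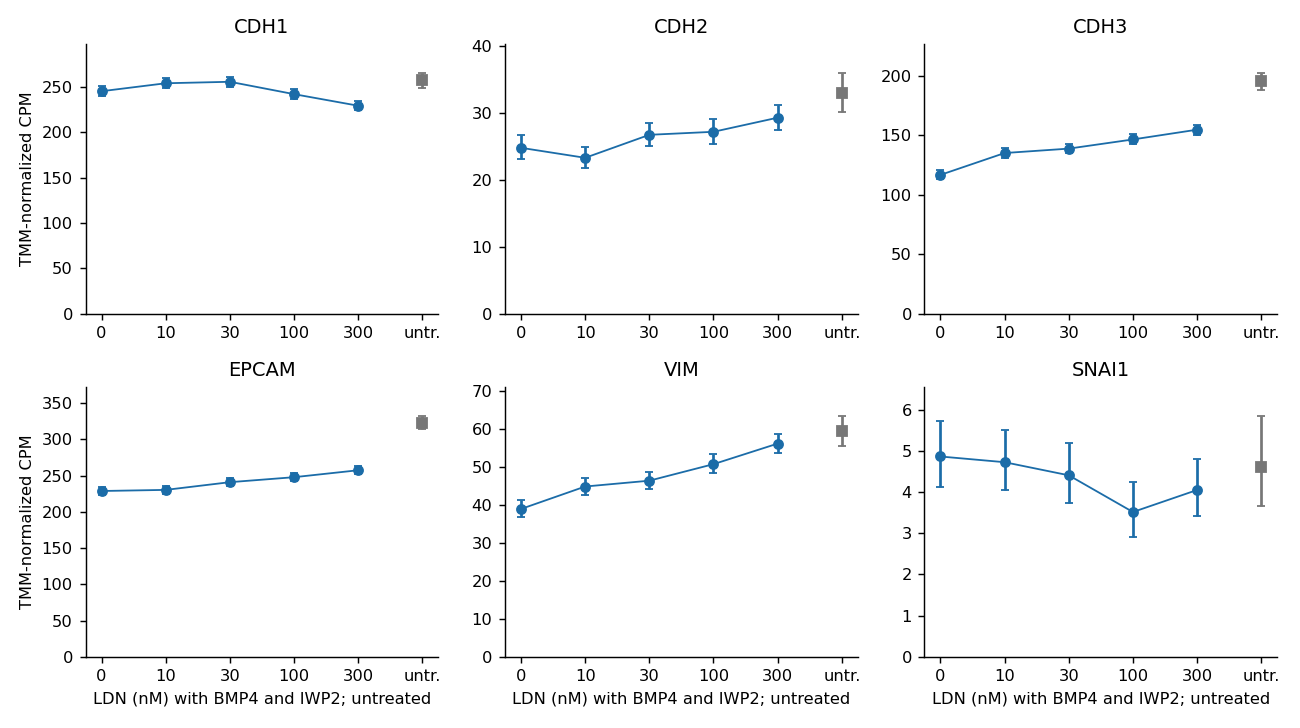
Normalized level (TMM-scaled CPM, axes from 0) of 6 members after 5 h at 5 doses of LDN with BMP4 and IWP2 (circles, joined) and in untreated cells (square), 1 library each, with Wilson 95% intervals for counting error. VIM, CDH3 and EPCAM increased at every dose step, and in all 6 members the untreated library stood above the 300 nM library, with intervals that did not overlap in CDH1, CDH3 and EPCAM.

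BMP4 with IWP2 and no LDN was also set against untreated cells, with 1 library each and no test. CDH3 was at 117 CPM (Wilson 95% interval 113 to 121) with BMP4 and 195 CPM (188 to 202) untreated, a ratio of 0.598. VIM, EPCAM and CDH2 were lower as well, at 0.656, 0.708 and 0.752 of the untreated level. CDH1 was at 0.953 and SNAI1 at 1.05 of it, and their intervals overlapped between the libraries. At 300 nM LDN the ratios to untreated were 0.946 for VIM, 0.891 for CDH1, 0.889 for CDH2, 0.877 for SNAI1, 0.797 for EPCAM and 0.792 for CDH3. The untreated library differs in BMP4, IWP2 and ROCK inhibitor as labeled and in its depth and mitochondrial share, and these cannot be told apart.

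VIM and CDH2 were lower with time and higher with LDN, and CDH3 and EPCAM were higher with LDN although they were above their 0 h level at 42 h. Their early values in the time series were lower than at 0 h: at 4 h the log2 difference was -0.22 for CDH3 (adjusted p = 0.999) and -0.61 for EPCAM (adjusted p = 0.57), neither of which passed the test.

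Among the genes around the members, lists were described by counts. Of 13 epithelial regulators, 11 were tested on hours, and 8 were higher and 0 lower, with a median of 2.47 on the log2 scale against -0.00 for all genes, of which 19.2% were higher and 17.5% lower. GRHL1, GRHL2 and OVOL1, transcription factors of epithelia of which GRHL2 activates CDH1, had the largest changes to 42 h among the 8 called on hours. GRHL1 was at 2.05 and 1.86 CPM at 0 h and at 99.8 CPM at 42 h (log2 change against 0 h 5.68, SE 0.33). GRHL2 went from 41.8 and 43.5 to 329 CPM (2.95, SE 0.32), and OVOL1 from 4.64 and 5.90 to 33.4 CPM (2.66, SE 0.30). With LDN, 2 of the 11 were higher and 4 lower (10.4% and 10.9% of all genes), and GRHL2 fell by 0.83 on the log2 scale over the doses (SE 0.06, adjusted p = 7.9e-07), whereas CDH1 was not called.

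Of 15 cadherin partners, the catenins, nectins and linkers of adherens junctions, 14 were tested on hours, with 6 higher, 0 lower and a median of 0.44, where 36.7% of all genes were called. NECTIN4, a nectin of epithelia, was at 0.0518 and 0.123 CPM at 0 h and at 89.3 CPM at 42 h. JUP, plakoglobin, rose from 228 and 239 to 1323 CPM (log2 change against 0 h 2.504, SE 0.33) and NECTIN2 from 157 and 174 to 632 CPM (1.94, SE 0.33). With LDN, 2 of 13 tested partners were higher and 1 lower, a share near the 21.3% called over all genes.

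EPCAM partners counted 7 genes, of which 6 were tested on hours, with 4 higher, 1 lower and a median of 1.28, against 19.2% higher and 17.5% lower over all genes. SPINT2, a protease inhibitor that protects EPCAM, went from 136 and 219 to 487 CPM (1.46, SE 0.32), and CD44, a hyaluronan receptor, fell from 10.2 and 8.08 to 0.716 CPM (-3.66, SE 0.46). With LDN, 2 of 6 were higher and 0 lower, and 21.3% of all genes were called.

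Of 22 other mesenchymal genes, 17 were tested on hours, and 5 were higher and 3 lower, with a median of 0.19. Of all genes, 19.2% were higher and 17.5% lower. At 42 h against 0 h, 7 of the 17 were higher and 3 lower, where 19.9% and 17.8% of all genes were. FN1, fibronectin, which is often used as a mesenchymal marker, went from 121 and 92.5 CPM at 0 h to 968 CPM at 20 h and 6479 CPM at 42 h (log2 change 5.93, SE 0.38). THY1, a surface glycoprotein also found on pluripotent stem cells, fell from 244 and 287 to 29.7 CPM (-3.16, SE 0.40), and the collagen COL5A2 fell from 10.8 and 13.9 to 3.02 CPM (-2.04, SE 0.36). FN1 and VIM, both named as mesenchymal, moved in opposite directions. With LDN, 1 of 16 was higher and 3 were lower (10.4% and 10.9% of all genes), and THY1 was the higher one (0.46, SE 0.05, adjusted p = 1.5e-05).

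**Figure D4:**
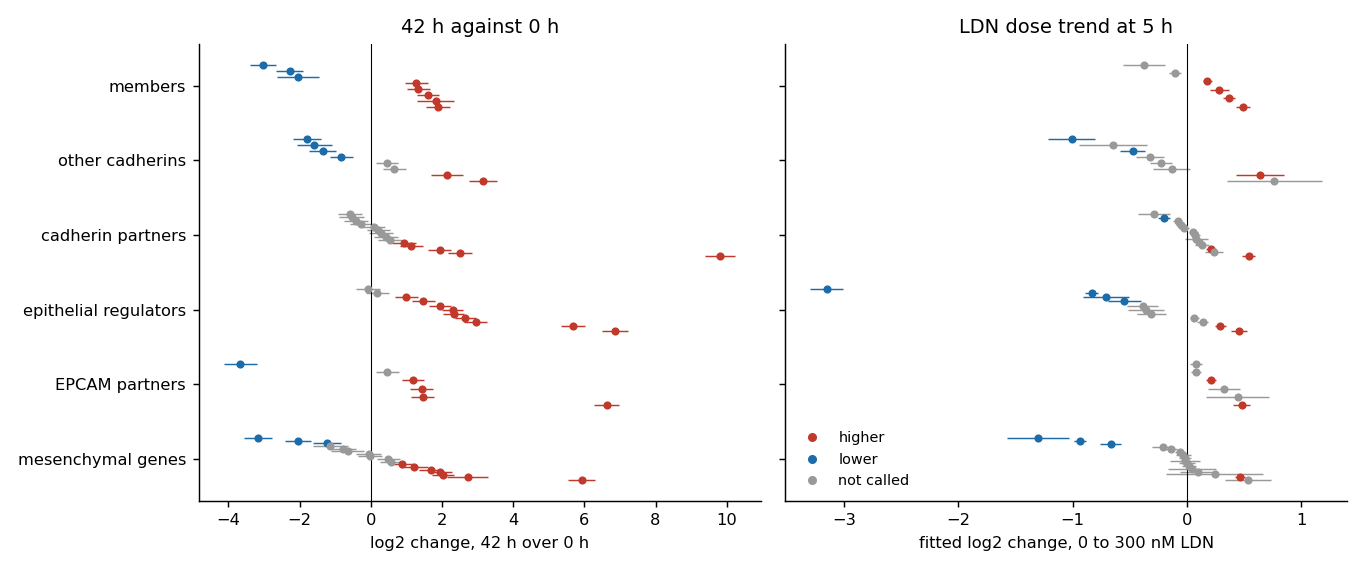
Log2 changes with SE for the tested members and 5 lists of related genes, at 42 h against 0 h (left) and as the fitted change from 0 to 300 nM LDN at 5 h (right). Red points passed the edgeR test as higher, blue as lower and gray did not pass. All 8 tested members passed at 42 h, where 37.7% of all genes did. With LDN 4 of 6 were higher, where 10.4% of all genes were.

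Of 20 other cadherins, 8 were tested on hours, with 1 higher and 2 lower and a median of -0.32, a share called that is near the 36.7% of all genes. CDH7 went from 1.09 and 1.15 CPM at 0 h to 9.90 CPM at 42 h (log2 change 3.14, SE 0.40), CDH23 from 6.89 and 7.51 to 2.83 CPM (-1.35, SE 0.37) and CDH8 from 2.83 and 3.04 to 0.980 CPM (-1.58, SE 0.48). With LDN 1 of 8 was higher (CDH8) and 2 were lower, where 10.4% and 10.9% of all genes were. CDH6, K-cadherin, was picked out after its values were seen. It was at 2.02 and 2.40 CPM at 0 h, 21.2 CPM at 4 h, 25.7 CPM at 12 h, 14.3 CPM at 20 h, 8.87 CPM at 28 h and 0.641 CPM at 42 h. Hence it was the 1 other cadherin called at 4 h (log2 change 3.25, SE 0.31, adjusted p = 7.7e-23), and at 42 h it was below its starting level (-1.79, SE 0.40, adjusted p = 5.8e-05). In the dose response CDH6 was at 28.4 CPM without LDN, 31.6 CPM at 10 nM, 26.9 CPM at 30 nM, 22.9 CPM at 100 nM, 13.3 CPM at 300 nM, and untreated cells held 1.004 CPM. The slope was -1.01 (SE 0.20, adjusted p = 0.0039). The time of the CDH6 maximum in the time series was thus a time at which CDH2 was already falling and CDH1 had not yet passed the test.

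**Figure D5:**
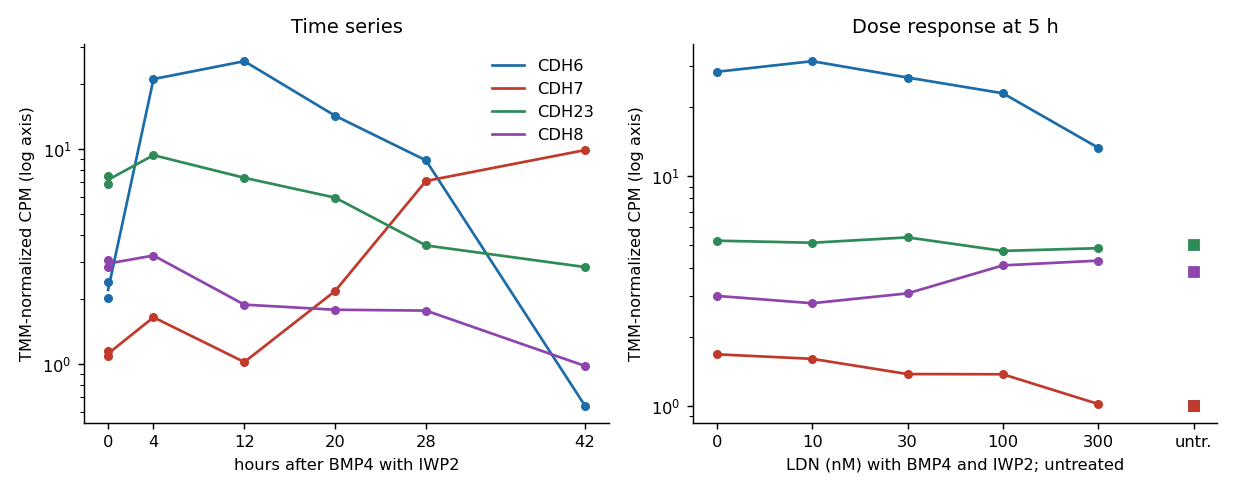
Normalized level (TMM-scaled CPM, log axes) of CDH6, CDH7, CDH23 and CDH8 in the 7 time-series libraries (left) and at 5 h in the dose response (right, squares for untreated cells). Within the time series CDH6 had its highest value at 12 h, 25.7 CPM, and its lowest at 42 h, 0.641 CPM, while CDH7 rose to 9.90 CPM.

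The genes whose profile was most like that of a member were found among 9581 genes by Pearson correlation of log2 levels over the 13 libraries, centered within each table; the libraries share the time course, and the values are a description. CDH1 was most like FUT8 (r = 0.994) and MYORG (0.992), CDH2 most like DPYSL3 (0.993) and HOMER2 (0.991), and VIM most like ITGA6 (0.995) and GNPTAB (0.994). EPCAM was most like PERP (0.990) and ERP44 (0.983), CDH3 most like CPNE2 (0.976) and TANC1 (0.972), and SNAI1 most like TMEM64 (0.965) and MAN1A2 (0.960). No member was among the nearest genes listed for another. SNAI1, SNAI2, ZEB1, ZEB2 and TWIST1 lay under the minimum of 10 CPM for such genes and could not have been listed.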

How the data were processed

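Bulk RNA-seq of 13 libraries was analyzed. The authors trimmed reads with Cutadapt 2.3 and, per the submitters' processing notes, mapped them with STAR 2.7.8a to GRCh38 and estimated gene abundance with RSEM 1.3.3. One deposited table per experiment gives expected counts in whole numbers, not scaled for depth, and another gives FPKM, which the authors normalized for length and depth. Groups came from the sample labels.

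Counts of the 61546 features, less 5 non-human ones, were filtered at a mean of 1 CPM and scaled with TMM factors. Trends on hours and on dose step, and each time against 0 h, were fitted with edgeR 4.0.16 (quasi-likelihood, two-sided, Benjamini-Hochberg adjustment over all genes tested, called at 0.05) in R 4.3.3. A slope is the fitted change over the whole range. Alternatives used DESeq2 1.42.0 and limma 3.58.1 on log2(FPKM + 0.1). CPM values have Wilson 95% intervals, and 3 counts, taken as the floor, equal 0.0421 to 0.192 CPM. Intervals cover counting error only. Genes were named by rule: all members, and up to 3 per list with the largest change to 42 h among those called on hours. One gene of the lists is not reported here by name. Likeness used a minimum of 10 CPM and a pseudocount of 0.5. The fits were tested on simulated data. Members and lists were chosen with earlier results of these data known. Python 3.11.15, pandas 2.3.3, numpy 2.4.6, scipy 1.17.1 and matplotlib 3.10.9 were used.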

Additional observations from a re-analysis of the deposited data

How the results depend on the processing

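Alternatives were other scalings, DESeq2, no filter or 2.5 CPM, limma on FPKM, the SMAD4 integral as dose scale, the square root of hours, and leaving out each library. CDH1, CDH2, VIM and SNAI1 kept their time trend, and VIM and CDH3 their dose trend, in all of these. The SMAD4 values carry no dose label and were assigned in falling order to rising doses. That scale thus has the same order as the dose steps and differs in spacing only. The number of genes called on dose moved from 1547 higher and 1619 lower to 399 and 676 with limma on FPKM. Leaving out 1 dose gave 888 to 1420 higher and 1088 to 1543 lower, and leaving out 1 time-series library changed the 3072 higher and 2793 lower on hours to 1935 to 3433 and 1408 to 3188, the lowest without 42 h. With DESeq2 the genes called were 396 higher and 59 lower at 4 h (edgeR 701 and 101), 724 and 247 at 12 h (1125 and 422) and 635 lower at 20 h (960), and without the filter 168 were lower at 4 h. ZEB2 changed the sign of its slope (0.73) with limma on FPKM (-0.46) and without 28 h, in a range of -0.10 to 2.80 over libraries left out, EPCAM that of its 28 h difference (-0.00) with no filter (0.023) and with 2.5 CPM (0.015), EPCAM that of its slope without 42 h, in a range of -0.28 to 1.498, and CDH1 that of its 4 h difference with library totals (0.0093); none of these was called, and the causes were not tested. The log2 ratio of CDH1 to CDH2 rose by 4.92 in counts and 4.98 in FPKM. No paired analysis was possible because only 0 h had more than 1 library. Genes under 3 counts per library are not resolved at these depths.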

Other observations

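GRHL3, a transcription factor of surface epithelia and a relative of GRHL1 and GRHL2, was picked out after its values were seen. Its level was 2.02 and 1.09 CPM in the 0 h libraries, 39.4 CPM at 4 h, 71.2 CPM at 12 h, 158 CPM at 20 h, 199 CPM at 28 h and 176 CPM at 42 h. All later libraries were above both 0 h libraries, with a log2 difference of 4.70 at 4 h (SE 0.35, adjusted p = 1.0e-37, edgeR), a time at which CDH1 was not called. Its slope on hours was not called (5.47, SE 1.99, adjusted p = 0.062). In the dose response GRHL3 stood at 28.2 CPM with no LDN and was lower at each dose, at 19.1, 10.6, 6.17 and 2.94 CPM, and the untreated library held 1.27 CPM. The slope over the doses was -3.15 on the log2 scale (SE 0.14, adjusted p = 3.9e-08), while CDH1 lay between 229 and 256 CPM over the same libraries.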
